A study of Homo sapiens with 4 samples.

Results

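CTCF is a zinc finger protein that binds insulators and stops the loops that cohesin extrudes, so that clusters of its sites often mark the borders of topologically associating domains. At 3 human loci, structural variants are known causes of limb, skeletal or sex-development disorders. Some of these variants move or remove such borders, and a gene then comes under the enhancers of its neighbour. Described here are the 9 genes that define those loci: WNT6, IHH, EPHA4 and PAX3 on chromosome 2, SHH and LMBR1 on chromosome 7, and KCNJ16, KCNJ2 and SOX9 on chromosome 17. The genes were listed by name, out of 19974 protein-coding genes on chromosomes 1 to 22 and X. The rule that lists them uses no measured value, but the genes were chosen with earlier results of these data known. The peaks counted are those inside the genes or within 500 kb on each side, 130 of the 42462 in the list, or 151 with those that lie between neighbouring genes but farther out.

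CTCF was mapped by chromatin immunoprecipitation and sequencing. All samples came from the human line MDA-MB-435, which the labels describe as melanoma. The mitotic group held 2 samples, taken with a custom rabbit antibody against CTCF phosphorylated at T431. Those cells were held for 24 h in 2 mM thymidine, released for 3 h, arrested for 16 h in 100 ng/mL nocodazole and collected by shake-off. The asynchronous group held 2 samples of cycling cells, taken with a commercial rabbit antibody against CTCF. The values below come from the peaks called in asynchronous replicate 1 alone. The groups were therefore not compared, no value has a replicate check, and no test was run. None of the limb, cartilage or embryonic tissues in which the disorders arise was sampled.

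That library held 19210460 tags. The strength of a peak is given in normalised tags, its tag count scaled to a library of 10000000, with an exact Poisson 95% interval in brackets that covers counting error only. The median of all peaks was 20 normalised tags. Peaks at or above 34.6 normalised tags, the threshold at percentile 75 of the list, are called strong here, and 25.2% of all peaks were strong. Because no control library was named for the calling, extra DNA copies and repeats were not separated from binding. The local background, the tags of a peak divided by its fold over the surrounding 10 kb, is therefore given beside the results, and its median over chromosomes 1 to 22 and X was 1.47 normalised tags. A stretch without a called peak is not shown to lack CTCF, since the caller asked for at least 15 tags.

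The base sequences before the transcription starts of 3 of the genes are shown. Of the genes with a promoter window given, these have the starts nearest to a called peak. The SHH start came next, with a peak 2986 bp away against 2762 bp for IHH. It is not shown, and its window held no match to the AGGNGGC letters described below. Each is the 250 bases that precede a RefSeq start on the minus strand, from GRCh38.p14, written 5′ to 3′. In the LMBR1 sequence (chr7:156893184-156893433) the capitals mark the 95 bases inside a called peak, which extends beyond the shown window. In the others the capitals mark matches to AGGNGGC on either strand, letters from the core of the CTCF motif. The EPHA4 sequences belong to 2 annotated starts, the outer (chr2:221574203-221574452) and the inner (chr2:221572305-221572554), with the peak between them. The IHH sequence (chr2:219060922-219061171) precedes the start of a gene whose peak lies inside it.
LMBR1: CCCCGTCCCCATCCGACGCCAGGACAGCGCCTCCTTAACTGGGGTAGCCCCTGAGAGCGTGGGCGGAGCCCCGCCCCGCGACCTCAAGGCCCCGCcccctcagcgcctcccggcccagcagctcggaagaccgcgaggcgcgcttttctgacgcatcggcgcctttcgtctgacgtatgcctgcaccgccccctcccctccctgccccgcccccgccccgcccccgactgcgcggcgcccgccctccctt
EPHA4 outer start: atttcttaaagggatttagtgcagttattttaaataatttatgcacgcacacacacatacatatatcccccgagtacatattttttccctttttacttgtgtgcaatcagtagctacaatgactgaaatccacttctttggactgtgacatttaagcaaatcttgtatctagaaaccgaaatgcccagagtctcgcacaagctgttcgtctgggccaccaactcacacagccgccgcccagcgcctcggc
EPHA4 inner start: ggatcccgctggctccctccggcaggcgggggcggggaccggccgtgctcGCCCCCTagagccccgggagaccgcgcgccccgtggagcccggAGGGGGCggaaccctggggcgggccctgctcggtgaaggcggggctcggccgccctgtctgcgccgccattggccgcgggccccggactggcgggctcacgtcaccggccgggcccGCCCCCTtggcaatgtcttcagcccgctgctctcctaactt
IHH: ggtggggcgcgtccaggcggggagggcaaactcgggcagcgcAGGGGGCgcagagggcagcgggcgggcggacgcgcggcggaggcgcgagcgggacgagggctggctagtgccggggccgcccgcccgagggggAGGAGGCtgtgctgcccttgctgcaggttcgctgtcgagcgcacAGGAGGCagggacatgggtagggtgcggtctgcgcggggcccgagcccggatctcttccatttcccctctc

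Promoter windows, 250 bases before to 50 after a start, were given for 8 of the 9 genes, with 11 starts in all, and SOX9 was not among them. A peak overlapped 1 of the 11 windows, that of LMBR1, beside 11.1% of 34961 windows genome-wide. A longer 12-base form of the CTCF core motif, with 4 free positions and searched on both strands, was in 0 of the 11 windows and in 2.41% of all windows. The shorter AGGNGGC, chosen after the data were seen, was in 5 of the 11, those of WNT6, IHH, the inner EPHA4 start, LMBR1 and KCNJ2, and in 35.9% of all windows. Among windows overlapped by a peak, 7.96% held the longer motif and 52.9% the shorter, against 1.72% and 33.8% of windows without a peak. The letters are rich in G and C, and so were these 5 windows, at 74.0% to 78.0%, whereas the SHH window held 43.3%. A match describes letters only.

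Of the 9 genes, 7 had fewer peaks within 500 kb than the median protein-coding gene. SHH and LMBR1 were among these 7 but lay inside the interquartile range of all genes. The median over the 9 genes was 15 peaks, against 22 over all protein-coding genes (interquartile range 16 to 30). WNT6, which encodes a Wnt ligand, had 38 peaks, and IHH, the hedgehog ligand of cartilage growth, had 48. SHH, the hedgehog ligand of limb and neural patterning, and LMBR1, the membrane protein gene whose intron holds the limb enhancer of SHH, had 19 each. These 4 genes lay nearest to or above the middle of all genes.

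PAX3, a transcription factor of the neural crest, had 15 peaks within 500 kb, and SOX9, the transcription factor of cartilage and testis formation, had 13. EPHA4, an ephrin receptor tyrosine kinase, had 9. KCNJ16 and KCNJ2, which encode inwardly rectifying potassium channels, had 7 and 6, and 3.20% and 2.58% of all protein-coding genes had fewer. The windows of KCNJ16 and KCNJ2 overlap, as do those of WNT6 and IHH and those of EPHA4 and PAX3, so their counts share peaks. All 5 peaks between EPHA4 and PAX3 were counted for both genes. The count also went with gene number: 40 other protein-coding genes lay in the IHH window and 36 in that of WNT6, against 0 for EPHA4 and SOX9 and 1 for each channel gene. The part of gene number in the peak counts was not tested.

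**Figure D1:**
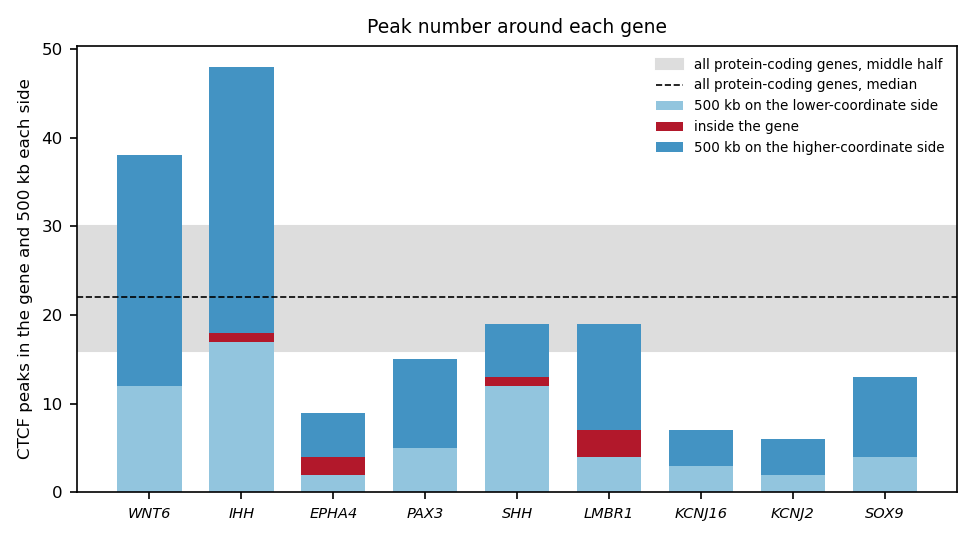
CTCF peaks in each gene and in the 500 kb on each side (bars, peaks per window, split by side), with the median (dashed line) and interquartile range (grey band) over all protein-coding genes. IHH (48) and WNT6 (38) stand above the band of 16 to 30, SHH and LMBR1 (19 each) inside it, and the other 5 genes below it.

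Peaks were inside 4 of the 9 genes: 3 in LMBR1, 2 in EPHA4 and 1 each in IHH and SHH, beside 48.9% of all protein-coding genes with a peak inside. WNT6, PAX3, KCNJ16, KCNJ2 and SOX9 held none. A peak lay within 1 kb of an annotated end of EPHA4 and of LMBR1, 2 of 9 genes, beside 28.2% of all genes. Within 5 kb it was 6 of 9, with WNT6, IHH, SHH and SOX9 added, beside 52.9% of all genes. With 9 genes these shares carry a wide counting error. PAX3, KCNJ16 and KCNJ2 were the 3 genes without a peak within 5 kb of an end.

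**Figure D2:**
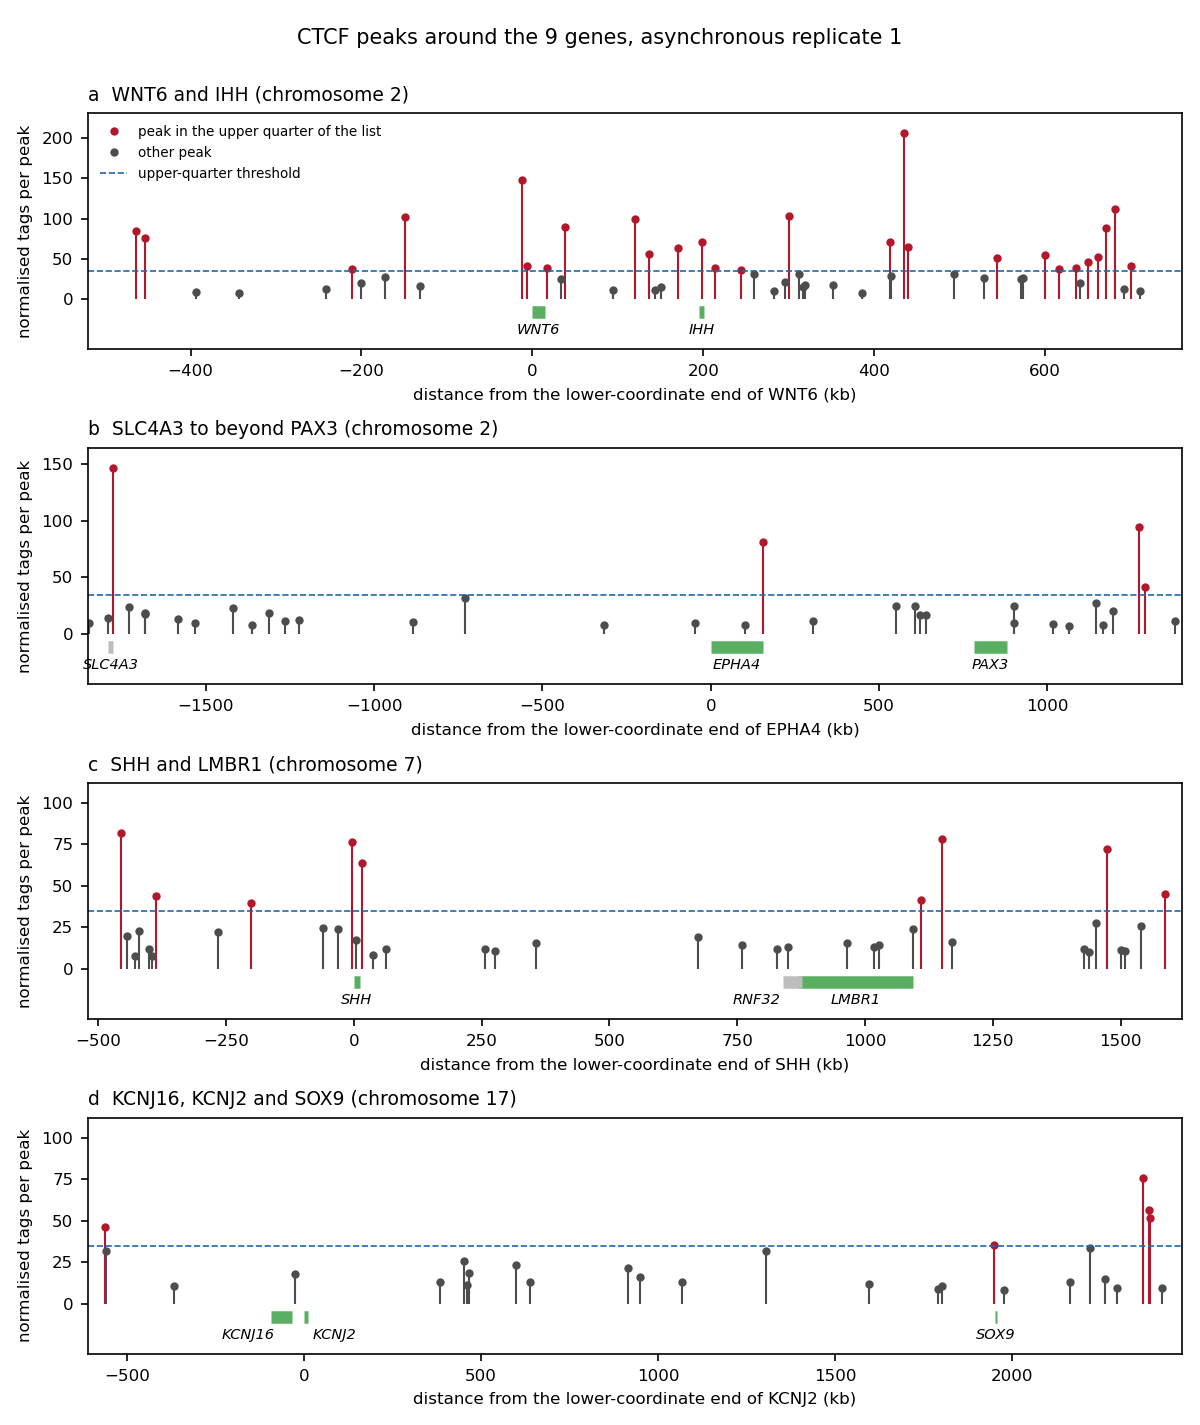
Normalised tags of each CTCF peak (vertical lines ending in points) by distance in kb from the lower-coordinate end of a named gene, in 4 panels. Green bars are the 9 genes, grey bars are SLC4A3 and RNF32, the dashed line is the threshold of 34.6 normalised tags for strong peaks, and strong peaks are red. Strong peaks are dense around WNT6 and IHH (a). Between EPHA4 and PAX3 (b), SHH and LMBR1 (c) and KCNJ2 and SOX9 (d) they number 0, 1 and 1.

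The WNT6 and IHH end of the chromosome 2 locus was densely occupied. The 180.2 kb between the genes held 9 peaks, 4.99 per 100 kb (2.28 to 9.48), against 1.35 on chromosome 2. Of these, 5 were strong. In the WNT6 window 18 of 38 peaks were strong (47.4%), and in the IHH window 25 of 48 (52.1%), beside 25.2% of the list. The local background was also somewhat above the list, with medians of 1.72 and 1.80.

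No peak lay inside WNT6, but strong ones lay on both sides of it. The strongest in the 500 kb below the gene, chr2:218847690-218848038, stood 11.94 kb from it with 148.1 normalised tags (132 to 167). It had an 87.4-fold excess over its surroundings. A peak of 40.6 lay 6.80 kb below the gene. On the other side a peak of 39.3 lay 2.53 kb beyond its end, inside WNT10A, the neighbouring Wnt ligand gene, and a peak of 89.3 lay 24.2 kb beyond it. WNT10A held another peak of 25 normalised tags.

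IHH carried a strong peak in its own body. That peak, chr2:219057985-219058333, held 71.1 normalised tags (59.9 to 84.3), 2.76 kb downstream of the transcription start, and stood 41.2-fold over its surroundings. Between WNT6 and IHH the strongest peak was one of 99.9 normalised tags just below FEV, a transcription factor gene of serotonin neurons. CFAP65, a sperm flagellum gene, held 3 peaks of up to 63.0, while CDK5R2, FEV and CRYBA2 held none inside.

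Beyond IHH the dense occupation went on as far as SLC4A3, an anion exchanger gene, and then stopped. The 581.0 kb from IHH to the end of SLC4A3 held 32 peaks, 5.51 per 100 kb (3.77 to 7.77), of which 15 were strong. The next 1776 kb, which hold no protein-coding gene before EPHA4, had 15 peaks, 0.845 per 100 kb (0.473 to 1.39), of which 1 was strong. The Poisson intervals of these densities do not overlap. The cut at SLC4A3 was not among the planned divisions, so the contrast is description only.

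The genes on the IHH side include several with strong peaks inside. PTPRN, a phosphatase-like protein gene of secretory granules, had 2 peaks inside, the stronger with 206.4 normalised tags (187 to 228), the most between any of the 9 genes. The local background was 5.87 at this peak and 10.9 at the weaker one, both above the list's 1.47. CHPF, a chondroitin polymerizing factor gene, had 1 peak of 111.4, and NHEJ1, a DNA end-joining gene whose introns hold enhancers of IHH, as known from mouse, had 6 peaks of up to 103.8. DES, the desmin gene, and INHA, the inhibin alpha gene, had none inside. In all, 14 of the 27 protein-coding genes between IHH and EPHA4 held a peak, beside 48.9% of all genes.

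The last strong peak before the gene desert, chr2:219642498-219642846, lay 0.701 kb beyond SLC4A3 with 146.8 normalised tags (130 to 165). From there to the next strong peak, inside EPHA4, was 1931 kb, with 15 weaker peaks between them of 7.81 to 31.5 normalised tags. The widest spacing in the desert, 413.4 kb, separated peaks of 31.5 and 7.81. Of the 10649 stretches between successive strong peaks in the genome, 2.26% were longer, and the median of all was 80.93 kb. Such shares, here and below, count stretches and not the bases in them. A stretch taken because it spans named genes is more often a long one. The shares therefore do not tell how unusual these places are in the genome. With strong peaks defined by fold over the surroundings instead, the stretch after SLC4A3 ended at the peak of 31.5 and was 1045 kb long.

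EPHA4 stood out among its surroundings by a single strong peak near its transcription start. This peak, chr2:221573523-221573871, held 81.5 normalised tags (69.4 to 95.6) and lay 505 bp downstream of the outer start and 1393 bp upstream of the inner one. It was more than 3 times as strong as any other peak within 500 kb of the gene, none of which was strong. Its local background was 2.85, above the list's 1.47. The other peak inside EPHA4 held 8.07 normalised tags, close to the calling limit. The nearest peaks outside were 45.29 kb below the gene, with 10.2, and 149.0 kb above it, with 11.2.

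The 625.7 kb between EPHA4 and PAX3, where a boundary is removed in a form of brachydactyly, held 5 peaks and none was strong. Of 659 gaps of 500 kb to 3 Mb between neighbouring protein-coding genes, 51.6% likewise had none. The normalised tags of the 5 peaks, in order toward PAX3, were 11.2, 24.5, 24.7, 16.9 and 17.2. The first stood alone, 149.0 kb from EPHA4 and 246.1 kb from the next. The other 4, from chr2:221969144-221969492 to chr2:222057265-222057613, made a group in which neighbours were 13.45 kb to 55.8 kb apart, and the group ended 142.4 kb below PAX3. The highest 2 values have overlapping intervals with the next 2, so no peak of this group was set apart by strength. Density was 0.799 per 100 kb (0.259 to 1.86), against 1.35 on chromosome 2, which lies inside that interval. The median local background was 1.27.

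PAX3 itself held no peak. Its nearest were 142.4 kb below, the last of that group, and 19.13 kb above, with 25 normalised tags inside RNF228. The 500 kb above PAX3 held 10 peaks, and the 500 kb below it held 5. Both strong peaks of its window lay in MOGAT1, an acylglycerol acyltransferase gene, with 94.2 (81.0 to 109) and 41.6 normalised tags. The strong peak in EPHA4 and the stronger MOGAT1 peak were 1117 kb apart, with 12 weaker peaks of 7.55 to 27.3 between them. By count, 4.78% of all stretches were longer.

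SHH was bracketed closely by strong peaks. One, chr7:155796937-155797285, lay 2.87 kb below the lower end, which is the 3′ end of the gene, with 76.5 normalised tags (64.7 to 89.9). The other, chr7:155815275-155815623, lay 2.99 kb upstream of the start with 64.0 (53.2 to 76.4). Their intervals overlap, so the difference is within counting error. They were 18.3 kb apart, and another peak of 17.7 (12.3 to 24.7) lay between them inside SHH. Of all protein-coding genes, 196 (0.981%) had a strong peak outside each end within 5 kb, and SHH was the 1 of the 9 genes that did. The bracket was chosen for description after its values were seen.

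Both SHH peaks stood on a local background near the list's median, at 1.51 and 1.35. They were 50.8-fold and 47.6-fold over their surroundings, against a median of 13.6 for all peaks. The focus ratio, the share of tags on the expected side of a peak centre, was 0.885 and 0.922 at the outer peaks and 0.778 at the inner one, against a median of 0.847. The pair was sharper and higher above its surroundings than the median peak of the list, while the inner peak, at 15.4-fold, was close to the median in height and less sharp.

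The SHH-to-LMBR1 interval of 856.5 kb held 10 peaks, and 9 of them were below the median of the list. The exception was the peak upstream of SHH. The rest held 8.33 to 19.3 normalised tags, and the median of all 10 was 12.5, the lowest of the intervals with several peaks. The density was 1.17 per 100 kb (0.560 to 2.15), against 1.37 on chromosome 7. The widest spacing was 316.7 kb, between peaks of 15.6 and 19.3. RNF32, a ring finger gene that overlaps LMBR1, held the last of the 10, with 13.

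LMBR1 held 3 weak peaks, of 15.9, 13.3 and 14.1 normalised tags, and their intervals overlap. A peak of 24.2 (17.5 to 31.9), chr7:156893339-156893687, had its centre 330 bp upstream of the start, and its focus ratio of 0.685 was below the median of the list. The next, 15.91 kb beyond the gene, was strong with 41.4 (33.0 to 51.8). A stronger one of 78.1 (66.1 to 91.6) lay 56.47 kb beyond the gene, at the lower-coordinate end of NOM1, a nucleolar protein gene. Thus the first strong peaks on the far side of LMBR1 lay beyond its start, and none was inside it.

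From the strong peak upstream of SHH to that beyond LMBR1 the distance was 1094 kb. The 13 peaks between them held 8.33 to 24.2 normalised tags. By count of all stretches between strong peaks, 4.93% were longer, and 5.57% reached 1 Mb. The median local background in the SHH-to-LMBR1 interval was 1.15, below the 1.40 of chromosome 7. Its part in the low tag counts was not tested.

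On the other side of SHH, the 500 kb held 12 peaks, of which 4 were strong. Besides the one beside the gene these were 39.6, 44.0 and 81.7 normalised tags, at distances of 201.1, 387.1 and 454.9 kb. The last of these stood 90.5-fold over its surroundings. The 500 kb upstream of SHH held 6 peaks, of which 1 was strong.

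KCNJ16 and KCNJ2 lay in the poorest surroundings of the 9 genes. Neither held a peak. The 33.92 kb between them held 1, chr17:70144255-70144603, with 17.7 normalised tags (12.3 to 24.7). Below KCNJ16 the next peak was 273.0 kb away, with 10.7, and above KCNJ2 the next was 372.5 kb away, with 13.3. The KCNJ2 window held no strong peak, and that of KCNJ16 held 1, of 46.3 (37.2 to 57.0), at 467.9 kb.

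The 1941 kb from KCNJ2 to SOX9, whose duplications cause Cooks syndrome when they include the border and KCNJ2, held 14 peaks. Their density was 0.721 per 100 kb (0.394 to 1.21). Chromosome 17 as a whole had 2.18 per 100 kb, above that interval. Their normalised tags ran from 8.85 to 35.4 with a median of 14.6, and 9 of 14 were below the median of the list. Neighbours were a median of 119.7 kb apart, against 24.1 kb on chromosome 17 and 35.1 kb over all chromosomes.

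Within this interval 3 peaks close together came first, after the lone peak 372.5 kb from KCNJ2. They held 26.0 (19.3 to 34.3), 11.2 and 18.5 normalised tags, at 442.5, 450.1 and 456.7 kb from KCNJ2. The strongest peak away from the genes was chr17:71473219-71473567 with 31.5 (24.3 to 40.8), 647.6 kb from SOX9, and it stood at the edge of the widest spacing of 291.3 kb. Its interval overlaps that of the 26.0 peak. By normalised tags no peak of the interior was strong. With strong defined instead as the top of the list by fold over the surroundings, at 21.87-fold or more, the call turns: the 31.5 peak, at 24.1-fold, was strong and the peak beside SOX9, at 14.9-fold, was not.

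SOX9 had a strong peak 2.24 kb below its lower-coordinate end, chr17:72118602-72118950, with 35.4 normalised tags (27.5 to 44.9). Its interval spans the threshold of 34.6 for strong peaks. Nothing was called inside SOX9, and on the other side the next peak, 19.81 kb away, held 8.07. The remaining strong peaks of its window, of 75.5, 56.7 and 51.8, lay 414.1 to 434.0 kb above the gene. By fold over the surroundings 1 of the 13 peaks in the SOX9 window was strong, that of 75.5 at 37.0-fold. The local background of the last pair was 4.27 and 4.47, the highest among the chromosome 17 peaks described here, against a chromosome median of 1.71.

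The stretch without a strong peak that spans KCNJ16, KCNJ2 and the interval up to SOX9 was 2511 kb, the longest at the 3 loci. It ran from the 46.3 peak below KCNJ16 to the 35.4 peak beside SOX9, with 16 weaker peaks of 8.85 to 32.0 in it. By count, 1.58% of stretches in the genome were longer, a share that does not allow for taking this one because it spans these genes. The end beside SOX9 rests on 1 borderline value. With strong defined by fold the stretch was 2238 kb, other peaks formed both its ends, and it ended at the interior peak of 31.5.

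**Figure D3:**
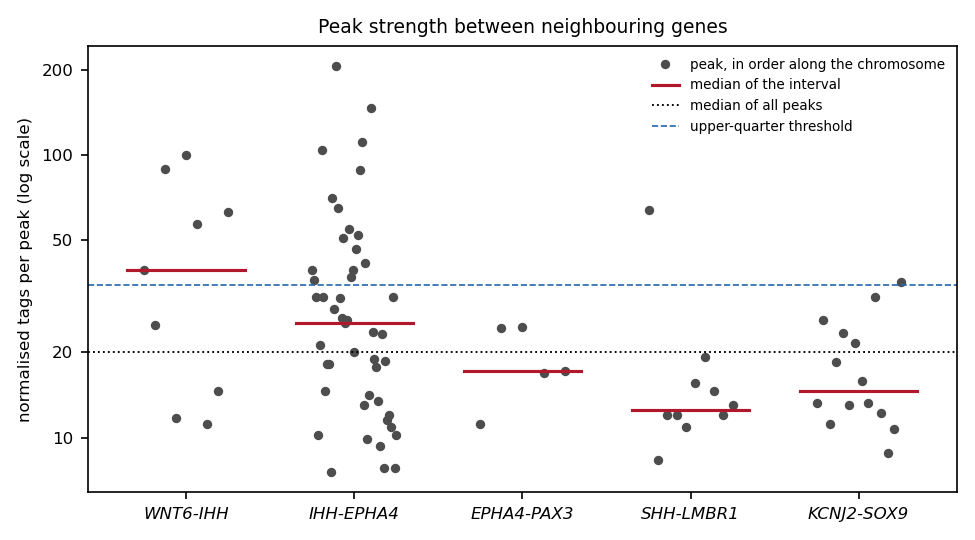
Normalised tags (log scale) of each peak in the 5 longer intervals between neighbouring genes, in chromosomal order, with the interval median (red line), the median of all peaks (dotted) and the threshold for strong peaks (dashed). The medians are 39.3 in WNT6-IHH and 25.5 in IHH-EPHA4, and 17.2, 12.5 and 14.6 in EPHA4-PAX3, SHH-LMBR1 and KCNJ2-SOX9, below the list's 20.

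In 3 intervals, EPHA4 to PAX3, SHH to LMBR1 and KCNJ2 to SOX9, the peaks were weak as a group by normalised tags beside the whole list. Strong peaks numbered 0 of 5, 1 of 10 and 1 of 14, and both strong ones lay within 3 kb of SHH or SOX9. By fold over the surroundings they numbered 0, 2 and 1. The peak beside SHH remained, but the others were the 15.6 peak 344.5 kb from SHH, at 22.4-fold, and the 31.5 peak 647.6 kb from SOX9. The medians of 17.2, 12.5 and 14.6 normalised tags were each below the list's 20. Chromosomes 2 and 7 had medians of 19 and chromosome 17 one of 25.8. The median fold over the surroundings in the same intervals was 15.1, 12.8 and 14.2, against 13.6 for the list. By that measure the peaks were not weak as a group. The median local background was 1.27, 1.15 and 1.27, below the 1.47 of chromosomes 1 to 22 and X.

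The 659 gaps of 500 kb to 3 Mb had a median density of 0.757 peaks per 100 kb (interquartile range 0.480 to 1.06). The SLC4A3-EPHA4 gap had 0.845, EPHA4-PAX3 0.799, SHH-RNF32 1.09 and KCNJ2-SOX9 0.721, so that 58.7%, 55.4%, 76.6% and 47.0% of all gaps were less dense. The median of the gaps' median tags was 15.6. Of all peaks in these 4 gaps, 3 of 43 were strong by normalised tags, against 624 of 5188 over all gaps. Farther than 10 kb from the flanking genes, 0 of 40 peaks in the 4 gaps were strong. That 10 kb division was not planned and leaves out the 3 strong peaks, so the inner counts are description only. The 0 of 40 allows a share of up to 7.50%, taken as 3 counts over 40 peaks and not as an exact interval. It treats the peaks as independent. Over all gaps 549 of 4896 peaks farther than 10 kb from the genes (11.2%) were strong, and 55.4% of gaps had none. By fold over the surroundings 3 of the 40 peaks were strong, against 1000 of 4896 over all gaps (20.4%), and 31.3% of gaps had none. The densities of 3 of the 4 gaps lay within the interquartile range of all gaps, and that of SHH-RNF32 lay just above it.

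Within 10 kb of a flanking gene, 3 of 3 peaks in the 4 gaps were strong, those beside SLC4A3, SHH and SOX9. Over all 659 gaps it was 75 of 292 (25.7%). By fold it was 2 of 3 in the 4 gaps, against 62 of 292 (21.2%) over all gaps, close to the 20.4% farther from genes. With 3 peaks this share carries a wide counting error. The 3 peaks are strong ones already described above and the 10 kb division was not planned, so the share is description only.

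**Figure D4:**
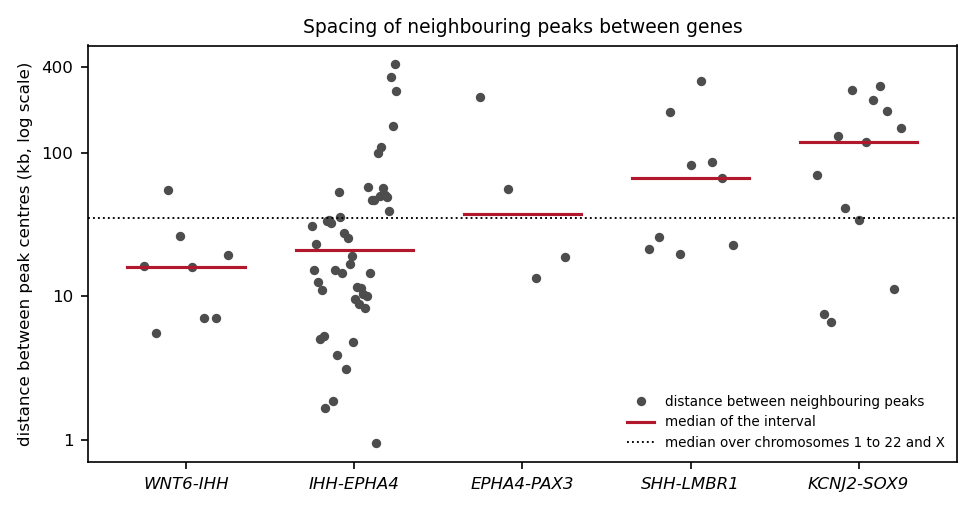
Distances in kb (log scale) between the centres of neighbouring peaks in the 5 longer intervals, with the interval median (red line) and the median over chromosomes 1 to 22 and X (dotted, 35.1 kb). The medians are 16.08 kb in WNT6-IHH, 21.04 kb in IHH-EPHA4, 37.33 kb in EPHA4-PAX3, 67.03 kb in SHH-LMBR1 and 119.7 kb in KCNJ2-SOX9.

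Among the 5 intervals plotted, median spacing was shortest between WNT6 and IHH and longest between KCNJ2 and SOX9. Within the IHH-EPHA4 interval, the part from IHH to the end of SLC4A3 had a shorter median still, 12.63 kb. The EPHA4-PAX3 interval had a lower density than SHH-LMBR1 but a shorter median spacing, because 4 of its 5 peaks stood in the group. Between WNT6 and IHH 0 of 8 spacings exceeded 100 kb, between EPHA4 and PAX3 1 of 4, between SHH and LMBR1 2 of 9, and between KCNJ2 and SOX9 7 of 13. Over chromosomes 1 to 22 and X the share was 18.9%. The closest neighbours between KCNJ2 and SOX9 were still 6.63 kb apart.

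Similarly sparse surroundings were found at other genes known for long-range control. A list of 20 such genes had a median of 14 peaks within 500 kb, close to the 15 of the 9 genes and below the 22 of all protein-coding genes. PITX1, the hindlimb transcription factor moved in Liebenberg syndrome, had the most with 26, followed by FOXC1 and FOXL2 with 21 each. POU3F4, a transcription factor of inner ear development, had the fewest with 2. DLX5 and DLX6, adjoining homeobox genes of limb development, had 7 each. The list is of mostly short genes, with a median length of 7.81 kb against 24.2 kb, and a peak inside or within 1 kb was found for 9 of 20 (45%, Clopper-Pearson 95% interval 23.1 to 68.5), against 57.8% of all genes.

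The hedgehog, EPH receptor and KCNJ channel genes, to which some of the 9 genes belong, were by median in more typical surroundings. The medians within 500 kb were 24 peaks for hedgehog pathway genes (10 to 48), 23.5 for EPH receptor genes (4 to 49) and 21.5 for KCNJ channel genes (6 to 36). All protein-coding genes had a median of 22. The families of WNT6, PAX3, SOX9 and LMBR1 were not listed. Of 16 hedgehog pathway genes, SHH and IHH included, 14 had a peak inside or within 1 kb (87.5%, 61.7 to 98.4) beside 57.8% of all genes. Their median length was 75.3 kb, against 24.2 kb over all genes, and the part of length in the share was not tested. The strongest were at BOC (94.5 normalised tags), a hedgehog co-receptor, GLI2 (91.1), a transcription factor of the pathway, and IHH (71.1). PTCH1, the hedgehog receptor, and GAS1, a co-receptor, had none.

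Of 14 EPH receptor genes, 9 had such a peak (64.3%, 35.1 to 87.2), the strongest at EPHB3 (175.9), EPHB1 (91.1) and EPHA4 (81.5). Of 16 KCNJ channel genes, 8 had one (50.0%, 24.7 to 75.3), the strongest at KCNJ11 (79.4), KCNJ9 (54.1) and KCNJ6 (52.6). Both intervals include the 57.8% of all genes. KCNJ2 and KCNJ16 had the fewest peaks within 500 kb of the 16 channel genes, while EPHA4 had 9. Of the 14 receptor genes, EPHA3, EPHA5 and EPHA7 had fewer, with 4, 4 and 8.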

How the data were processed

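Of the 4 CTCF ChIP-seq samples, the peaks of asynchronous replicate 1 were used, and 3 samples were not analysed here. The submitters' processing notes name Bowtie2, HOMER and the build hg38, and for both tools the version is not given in the sources used. HOMER's findPeaks called factor peaks without a named control, per the file headers, at a false discovery rate of 0.001, which came to 15 tags. Fragments were taken as 164 bp, 1 tag was considered per position, and a peak had to exceed its surrounding 10 kb 4-fold. The list comes from 1 tag directory.

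The deposited tag signal is scaled to 10000000 tags. Copies of a fragment are not independent, so Poisson intervals can be too narrow. Focus was deposited as a fraction, enrichment over local and clonality as a fold or ratio, and the score as the caller wrote it. The deposited p-value was not used.

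Genes and promoter windows came from RefSeq tables (GRCh38.p14, the same chromosome coordinates as hg38). A peak was placed by its centre. Strand was known for 8 of the 9 genes. Poisson and Clopper-Pearson 95% intervals were computed. Counting was tested on simulated peaks. The genes and lists were chosen with earlier results of these data known. Named were all 9 genes, the strongest or nearest peaks of each interval and gene, genes between them, and the 3 highest or lowest of each list. Alternatives varied the score, fold, window, merging, overlap and definition of strong. Software was Python 3.11.15 with pandas 2.3.3, numpy 2.4.6, matplotlib 3.10.9 and scipy 1.17.1.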

Additional observations from a re-analysis of the deposited data

How the results depend on the processing

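Only 1 library was analysed, so no replicate could be left out. No paired analysis was possible because the result comes from 1 peak list and no test. In each of the 7 alternatives run (score, fold, merging, overlap, windows of 250 kb and 1 Mb, genes of the own chromosome), 7 of the 9 genes had fewer peaks within the window than the median gene, and they were EPHA4, PAX3, SHH, LMBR1, KCNJ16, KCNJ2 and SOX9 each time. A score filter at the list's median left 27 peaks between IHH and EPHA4, 2 between EPHA4 and PAX3, 1 between SHH and LMBR1, 5 between KCNJ2 and SOX9 (a median of 353.1 kb apart) and 2 inside the 9 genes, and the members' median fell to 7 within 500 kb. With 1 peak left, spacing between SHH and LMBR1 had no value. The members' median was 8 within 250 kb and 28 within 1 Mb. These changes follow from counting fewer peaks or other windows. With strong peaks defined by fold over local (an alternative chosen for stretches, gaps and windows after seeing the data), 3 of the 40 inner peaks of the 4 gaps were strong, not 0, the KCNJ16 window held 0 and the SOX9 window 1, 2 lay between SHH and LMBR1, and the stretches without one were 1045, 988.3, 752.1 and 2238 kb from IHH to EPHA4, EPHA4 to PAX3, SHH to LMBR1 and KCNJ2 to SOX9. The number of genes with a peak at an end was 1 within 500 bp and 6 within 5 kb. Weak peaks carry few tags, so peaks near the 15-tag limit may be missing or present by counting error.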
